A study of Mus musculus with 35 samples.

Results

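A pair of mouse bone marrow progenitors was hybridised under 2 kinds of title, and the arrays that carry WT in the title were set against those that carry a number alone. The comparison used 8 of the 35 arrays of the series, 4 WT-titled and 4 numbered, chosen by title. In each set 2 arrays held the common monocyte progenitor (cMoP) and 2 held the progenitor that the study assigns to SatM, an atypical monocyte with a segmented nucleus (SMP). All 8 were labelled alike as FACS-sorted bone marrow cells of C57BL/6J males at 8 weeks, profiled from total RNA on the Affymetrix Mouse430_2 array. No treatment, allele or clone separates the sets in the labels, and the labels do not say what WT stands for. Neither the labels nor the files say that arrays of one group came from separate animals, so every p-value measures only the spread between these arrays, which may be technical. The question asked was which genes, and which gene functions, followed the title in both progenitors.

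Common monocyte progenitors are committed cells of the marrow that give rise to monocytes, while SatM arise from a separate progenitor with granulocyte features. Myeloid cells are known to switch on immediate-early genes within minutes of a stimulus, among them the NR4A nuclear receptors, and cytokine genes follow through NF-kB. Cells at rest also keep a low tonic expression of interferon-stimulated genes, which protect against viruses. Xist, the RNA that coats and silences an X chromosome, is made in cells with more than one X, and Y-linked genes are read only from a Y chromosome.

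Levels are the deposited log2 values, so that a difference of 1 is a doubling, and 2.30 is the lowest value in the file, shared by 45.1% to 47.6% of all probe sets on each of these 8 arrays. A gene at that value has no measured level. The identity markers matched the labelled cells in part. The numbered cMoP arrays and the WT-titled cMoP arrays together had Csf1r, the receptor for the growth factor of monocytes, between 11.77 and 13.74, the monocyte transcription factor Irf8 between 11.06 and 12.18 and Mpo, a granule enzyme of early myeloid cells, between 12.89 and 13.39. On the SMP arrays of both titles the high-affinity IgE receptor chain Fcer1a lay between 12.56 and 13.59, Ms4a2, another chain of that receptor, between 12.95 and 13.66, and the transcription factor Gata2 between 14.24 and 14.86, genes best known from basophils and mast cells. Fcer1a and Ms4a2 were at 2.30 on all 4 cMoP arrays. The stem cell factor receptor Kit, a marker of progenitors, was low on all 8, between 2.30 and 5.43.

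Xist and the Y-linked genes separated the sets without overlap. The probe set of Xist used here read 13.75 and 13.09 on the WT-titled cMoP arrays and 13.78 and 13.32 on the WT-titled SMP arrays. It read 2.30 on all 31 other arrays of the series, the 4 numbered progenitor arrays included. The difference was 11.19 (SE 0.24; adjusted p = 2.85e-06, limma with Benjamini-Hochberg adjustment over 10986 genes), and its size is a lower bound because the numbered arrays stood at the lowest value. Both further Xist probe sets showed the same split, with 10.34 to 11.69 on the WT-titled arrays and 2.30 on all others. Tsix, the antisense partner of Xist, was at 2.30 on every array.

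Eif2s3y, the Y-linked copy of a translation initiation factor subunit, read 2.45 and 2.68 on the WT-titled cMoP arrays and 2.50 and 2.30 on the WT-titled SMP arrays. On the numbered arrays it read 10.67 and 10.59 in cMoP and 11.06 and 10.52 in SMP. The 27 arrays of other cell types spanned 9.58 to 12.19, so the WT-titled arrays alone were near the lowest value. The difference was -8.23 (adjusted p = 3.40e-05, limma). Kdm5d, a Y-linked histone H3 demethylase, read 2.30 on 3 WT-titled arrays and 4.64 on the first WT-titled SMP array, against 8.13 and 8.30 in numbered cMoP and 7.83 and 9.56 in numbered SMP. Its difference was -5.57 (adjusted p = 0.0146, limma), and the call was lost when either numbered cMoP array or the first WT-titled cMoP array was left out, with adjusted p-values up to 0.0949. Uty, another Y-linked demethylase, differed by -2.40 and did not pass (adjusted p = 0.103, limma). The animals were labelled male on all 35 arrays, and the Xist and Y-linked levels of the 4 WT-titled arrays go against that label. The sex of the source and the title cannot be told apart here.

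**Figure D1:**
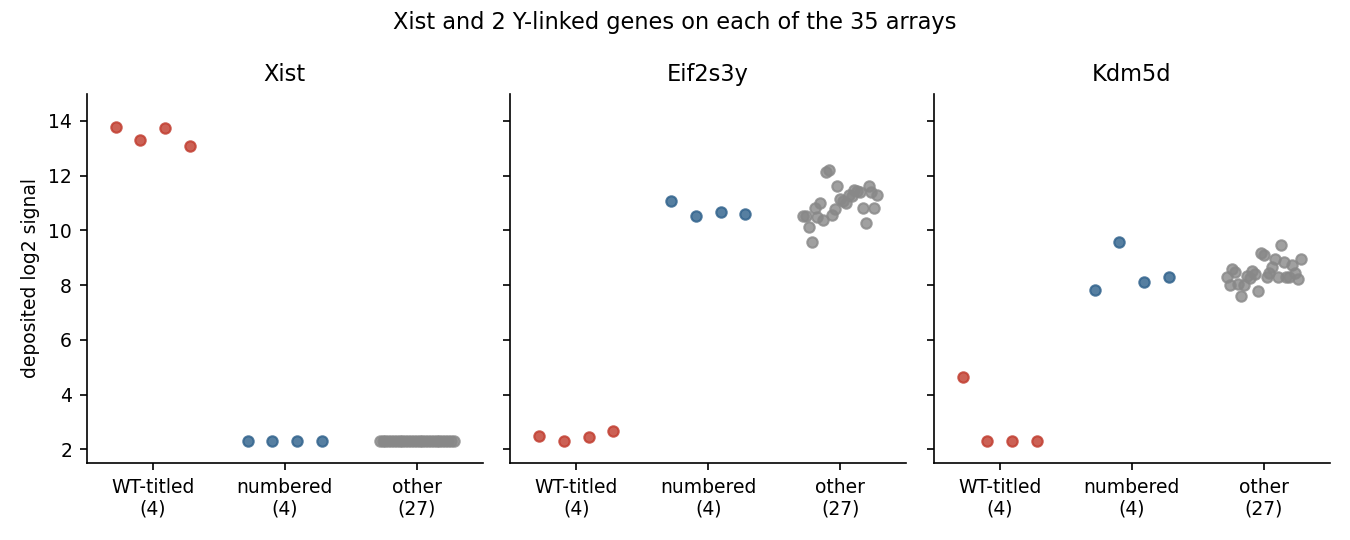
Deposited log2 level of Xist, Eif2s3y and Kdm5d on each of the 35 arrays, 1 point per array, for the 4 WT-titled, the 4 numbered and the 27 other arrays. Xist was at 13.09 or above on the WT-titled arrays and at 2.30 on all others, and Eif2s3y and Kdm5d ran the opposite way.

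X-linked partners of the Y-linked genes escape silencing in the mouse, and both of the partners listed next rose. Kdm6a, the X-linked partner of Uty, read 9.66 and 9.09 in WT-titled cMoP against 8.05 and 8.04 in numbered cMoP, and 10.62 and 10.03 in WT-titled SMP against 8.70 and 8.61 (difference 1.50; adjusted p = 0.0266, limma). Eif2s3x, the X-linked partner of Eif2s3y, read 11.88 and 11.95 against 10.09 and 10.37 in cMoP and 10.94 and 11.07 against 10.07 and 10.34 in SMP (difference 1.24; adjusted p = 0.0341, limma). On the probe sets used, the sets overlapped for neither gene in either progenitor. Of the 8 fits that left out 1 array Kdm6a was called in 2 and Eif2s3x in 1. Further probe sets moved by 2.28, 2.07 and 0.18 for Kdm6a and by 1.09 and 0.50 for Eif2s3x. The last overlapped in SMP (4.43 and 7.14 against 5.52 and 6.35). Kdm5c, partner of Kdm5d, differed by 0.71 and the RNA helicase gene Ddx3x by 0.39, and neither passed (adjusted p = 0.195 and 0.134, limma). Other Kdm5c probe sets moved by -0.02 to 2.99. The one at 2.99 read 4.52 to 6.57 on the WT-titled and 2.36 to 3.62 on the numbered arrays. Of the 328 tested X-linked genes 3 rose and 4 fell (2.13% called, near the 3.02% of all tested genes). Their median difference was -0.24, beside -0.21 over the autosomal genes. The autosomes held 323 of the called genes, among 10631 tested there.

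Across all 10986 tested genes, 332 were called at an adjusted p under 0.05 and a difference of at least 1 (3.02%; limma with a term for cell type). Of these 55 rose in the WT-titled arrays (0.501%) and 277 fell (2.52%). In each of the 332, both WT-titled arrays lay on the same side of both numbered arrays in cMoP and again in SMP, which without any test held for 2539 of the tested genes (23.1%). None of the 332 was called for a different response of the progenitors. The model that called them counts such a difference as spread, which hinders a call. Neither the shared order of the sets nor the missing interaction calls is therefore independent support. The median over the genes that fell went from a level of 8.98 on the numbered arrays to 7.09, and over those that rose from 7.74 to 9.76. Differences within each progenitor were tested as contrasts of a model with 4 groups over all 8 arrays. Both tests share an estimate of the spread, so a call in SMP rests on the cMoP arrays too, and the reverse. By these tests 148 genes were called in cMoP (1.35%), 26 higher (0.237%) and 122 lower (1.11%). In SMP 133 were called (1.21%), 35 higher (0.319%) and 98 lower (0.892%). Both lists shared 21 genes, all in the same direction, which is 14.2% of the cMoP calls and 15.8% of the SMP calls.

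The whole distribution was shifted: the median difference over all tested genes was -0.21, and 63.2% of them were lower on the WT-titled arrays. When each array was instead centred on the median of its tested genes, 432 genes were called, 274 higher and 158 lower, and the median difference was 0.18. Of the 332 genes 203 were called under that scaling too. Quantile normalisation gave 444 calls, 90 higher and 354 lower, with a median of -0.20. The excess of falls over rises thus held on the deposited and the quantile scale and turned after median centring, while none of the 332 genes changed sign under either scaling. The numbered cMoP arrays agreed most closely of the 4 pairs (r = 0.993 over genes, against 0.931 to 0.960 in the other 3). Without the first of them 4 genes were called and without the second 3. Leaving out any one of the other arrays left between 27 and 404 calls, with 27 without the first WT-titled cMoP array, 48 without the first WT-titled SMP array and 62 without the second numbered SMP array. Xist, Eif2s3y and 2610507I01Rik were called whichever array was left out, and 19 genes were called in each of the 6 omissions that kept both numbered cMoP arrays.

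**Figure D2:**
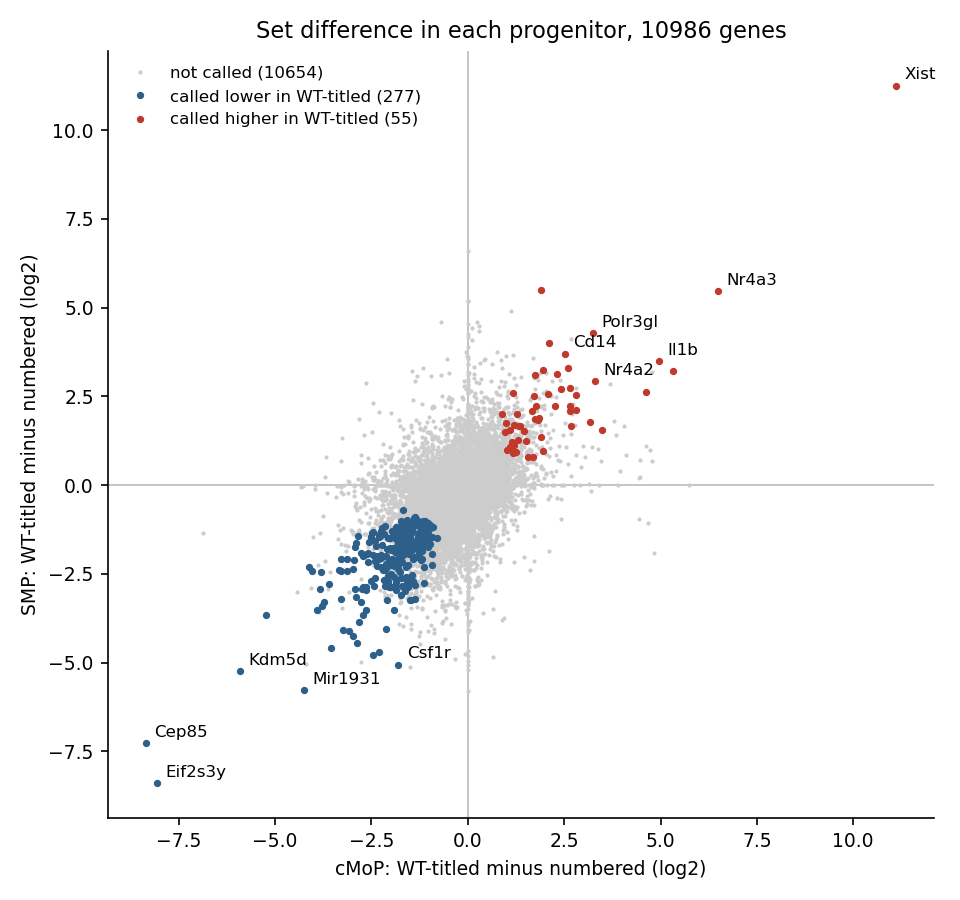
Difference of the WT-titled from the numbered arrays in cMoP (x axis) and in SMP (y axis), in log2 units, 1 point per tested gene, with called genes in colour. The 332 called genes lie in the quadrants where both progenitors moved the same way, which the model that called them favours. Xist stands at 11.12 and 11.25.

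After Xist, the largest rise was that of Nr4a3. Nr4a3, an immediate-early nuclear receptor, read 10.04 and 7.57 in WT-titled cMoP against 2.31 and 2.30 in numbered cMoP. In SMP it read 8.71 and 9.84 against 5.31 and 2.30. Every WT-titled array was above every numbered one (difference 5.99, SE 0.82; adjusted p = 0.0253, limma). Its relative Nr4a2 read 12.06 and 11.16 against 9.28 and 7.34 in cMoP and 10.41 and 9.78 against 7.76 and 6.58 in SMP (difference 3.11, SE 0.49; adjusted p = 0.0304, limma). For both genes the sets were apart within each progenitor on the probe set used. The spread between the numbered arrays of a pair reached about 3 units for Nr4a3 in SMP. The other Nr4a2 probe sets moved by 1.99, 1.65, 1.56, 0.02 and -0.20, and the first of these overlapped in SMP (8.93 and 7.80 against 5.62 and 9.19). Nr4a2 was not called on the mean of its probe sets. Both other Nr4a3 probe sets read at most 2.55 on all 8 arrays and moved by 0.00 and -0.06. The promoters of these receptors are shown because each held 4 copies of TGACG, the half-site of the cAMP response element. More than 3 matches to TGACG, counted on both strands in the 250 bases before a start, occurred in 0.137% of 32851 RefSeq promoters, and at least 1 in 17.8%. The windows are from GRCm38.p6, the Nr4a2 one at chr2:57124004-57124253 on the minus strand and the Nr4a3 one at chr4:48045055-48045304 on the plus strand. They run 5′ to 3′ up to the base before the start, and capitals mark the matches, written TGACG or, on the other strand, CGTCA.
Nr4a2 promoter: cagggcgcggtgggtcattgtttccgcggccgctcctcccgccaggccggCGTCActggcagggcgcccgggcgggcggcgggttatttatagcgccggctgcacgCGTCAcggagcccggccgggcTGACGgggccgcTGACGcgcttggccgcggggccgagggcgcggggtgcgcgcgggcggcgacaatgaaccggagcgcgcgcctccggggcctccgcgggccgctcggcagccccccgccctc
Nr4a3 promoter: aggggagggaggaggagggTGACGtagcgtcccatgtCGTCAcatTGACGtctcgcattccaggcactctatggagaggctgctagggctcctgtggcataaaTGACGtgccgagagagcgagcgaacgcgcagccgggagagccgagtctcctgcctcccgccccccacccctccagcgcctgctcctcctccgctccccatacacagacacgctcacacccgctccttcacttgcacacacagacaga
A match is a string of letters and not a measured binding site.

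Il1b, the gene of the inflammatory cytokine interleukin-1 beta, read 9.16 and 9.23 in WT-titled cMoP against 5.63 and 2.81, and 9 and 8.79 in WT-titled SMP against 6.41 and 4.38. The 4 WT-titled arrays were within 0.5 of each other and all above the numbered ones (difference 4.24, SE 0.74; adjusted p = 0.0353, limma). Cd14, a co-receptor for bacterial lipopolysaccharide, read 9 and 10.74 against 8.15 and 6.56 in cMoP and 5.42 and 6.58 against 2.30 and 2.30 in SMP (difference 3.11, SE 0.59; adjusted p = 0.0417, limma). Its sets did not overlap within a progenitor, though in cMoP they came within 1 unit of each other. Zc3h12a, an RNase that degrades cytokine mRNA, rose by 2.71 (adjusted p = 0.0478, limma), from 6.30 and 5.56 to 8.96 and 7.51 in cMoP and from 10.17 and 8.17 to 12.64 and 11.94 in SMP. Rasgef1b, a guanine nucleotide exchange factor induced in stimulated macrophages, rose by 4.27 (adjusted p = 0.0329, limma), and Errfi1, a feedback inhibitor of EGF receptor signalling, by 3.07 (adjusted p = 0.0328, limma). Calls of these genes were lost in most fits with 1 array fewer: of the 8 fits that left out 1 array, Nr4a3 was called in 2, Nr4a2, Il1b, Zc3h12a, Rasgef1b and Errfi1 in 1 each and Cd14 in none, and none of them was called when either numbered cMoP array was left out.

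The remaining genes among the 12 largest rises had other roles. Polr3gl, a subunit of RNA polymerase III, read 9.46 and 8.27 against 5.48 and 5.74 in cMoP and 10.40 and 10.25 against 6.05 and 6.05 in SMP. Its sets were more than 2 units apart in both progenitors (difference 3.76, SE 0.35; adjusted p = 0.0127, limma), and the call was lost only when a numbered cMoP array was left out (adjusted p up to 0.0835). Cap1, which recycles actin monomers, rose by 2.95 (adjusted p = 0.0249, limma), and its other probe set moved by 2.92; it was called in 2 of the 8 fits that left out 1 array, Ctse in 4 and Kansl3 in none. Probe sets disagreed for Ctse and Kansl3. Ctse, the intracellular protease cathepsin E, rose by 3.63 on the brighter probe set (adjusted p = 0.0233, limma) while another moved by -2.23, and Kansl3, a subunit of a histone acetyltransferase complex, rose by 3.69 (adjusted p = 0.0451, limma) while another moved by -0.78. Over all called genes, 192 had a further bright probe set, which moved by at least 1 in the same direction in 76 and by at least 1 in the opposite direction in 13.

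**Figure D3:**
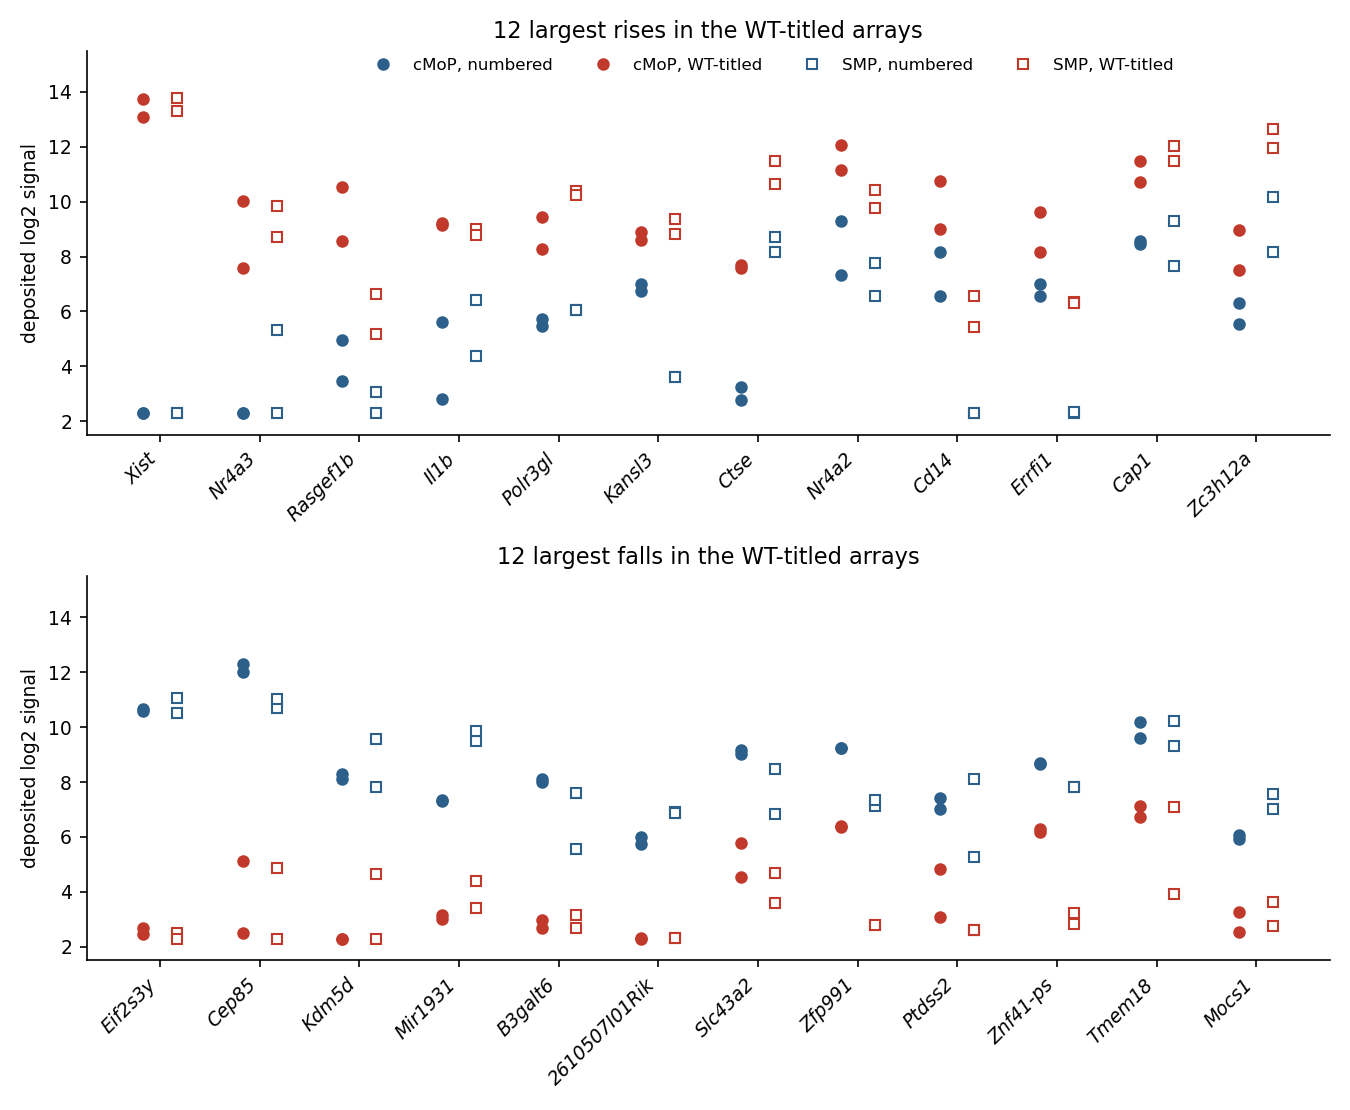
Deposited log2 level of the 12 largest rises and the 12 largest falls on each of the 8 arrays, filled for cMoP and open for SMP, in 1 colour per title. For each gene the WT-titled and numbered points of one progenitor do not overlap, as the choice of genes required.

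Among the falls, Cep85, which encodes a centrosomal protein, read 2.51 and 5.11 in WT-titled cMoP against 12.31 and 12, and 2.30 and 4.88 in WT-titled SMP against 10.69 and 11.02. The sets were more than 5 units apart in both progenitors (difference -7.80, SE 0.74; adjusted p = 0.0127, limma). Its second probe set did not move (0.00). The unnamed transcript 2610507I01Rik read 2.31 and 2.30 against 5.99 and 5.73 in cMoP and 2.31 and 2.31 against 6.92 and 6.87 in SMP (difference -4.07, SE 0.27; adjusted p = 0.00367, limma). On the WT-titled arrays it was at or next to the lowest value. The probe set annotated Mir1931, which is no measure of the mature miRNA, read 3.17 and 3.01 against 7.31 and 7.36 in cMoP and 3.40 and 4.40 against 9.51 and 9.85 in SMP (difference -5.01; adjusted p = 0.0122, limma). When a numbered cMoP array was left out the calls of Cep85 and Mir1931 were lost, with adjusted p-values up to 0.0835 and 0.0754.

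B3galt6, a galactosyltransferase that builds the linker of proteoglycans, fell by 4.45, although another of its probe sets moved by only -0.71. Falls were also called for Slc43a2, a transporter of large neutral amino acids (-3.72), Ptdss2, a phosphatidylserine synthase (-3.66), Tmem18 (-3.62) and Mocs1, an enzyme of molybdenum cofactor synthesis (-3.60). The zinc finger gene Zfp991 fell by 3.66 on the brighter probe set and moved by 1.44 on another. Znf41-ps, annotated as a pseudogene of the same class, fell by 3.62. A further probe set of Slc43a2 moved by 0.42 and the mean of its probe sets by -1.10, and the mean of the 9 probe sets of Ptdss2 moved by -0.68 and was not called. With 1 array left out, Zfp991 was called in 6 of 8 fits, Mocs1 in 5, B3galt6 in 4, Slc43a2 and Znf41-ps in 3 and Ptdss2 and Tmem18 in 1, and none of them when that array was a numbered cMoP array. Zinc finger genes with near-identical copies are uncertain on an array, since a probe set can read several of them.

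Against the 27 arrays of other cell types, 30 genes had all 4 WT-titled arrays outside the range of the remaining 31 arrays (0.273% of the tested genes), 5 above (0.0455%) and 25 below (0.228%). After Xist and Eif2s3y, with gaps of 10.79 and 6.90, the widest gaps were those of Cep85 (3), Kdm5d (2.96) and Mir1931 (2.52). For these genes the numbered progenitor arrays lay within the range of the other 27, except that Kdm5d read 9.56 on a numbered SMP array against a highest value of 9.45. Nr4a3, by contrast, spanned 2.30 to 13.59 over the other 27 arrays, which covers both sets.

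Of 22 tested interferon-stimulated genes 3 fell, beside 2.52% of all tested genes, and none rose. Over both progenitors no member had a positive difference on the deposited scale, the nearest to 0 being Oasl1 (-0.00), and the median was -1.31 beside -0.21 over all tested genes (-1.75 in cMoP and -0.88 in SMP). Within SMP the differences of Cmpk2 (0.84), Irf7 (0.40), Stat2 (0.16), Gbp2 (0.13) and Ifit2 (0.08) were positive. Median centring left the list at -0.91. Igtp, an interferon-inducible GTPase, read 3.82 and 4.57 in WT-titled cMoP against 7.27 and 7.70, and 6.67 and 6.46 in WT-titled SMP against 8.06 and 9.93 (difference -2.86; adjusted p = 0.0324, limma). Usp18, which removes ISG15 and dampens interferon receptor signalling, read 3.32 and 4.07 against 6.92 and 7.07 in cMoP and 5.33 and 5.36 against 7.24 and 7.60 in SMP (difference -2.69; adjusted p = 0.0255, limma). In both genes the sets were apart by more than 1 unit in each progenitor. Xaf1, a pro-apoptotic interferon target, fell by 3.22 on the brighter probe set (adjusted p = 0.0411, limma), but its other probe set moved by 3.14 and the mean of the probe sets by -0.04. With 1 array left out, Usp18 was called in 2 of 8 fits and Igtp and Xaf1 in 1, and none of the 3 when that array was a numbered cMoP array.

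Further interferon-linked genes were called outside that list and were picked out after their values were seen. Apobec3, a cytidine deaminase that restricts retroviruses, read 10.47 and 9.05 against 11.95 and 11.81 in cMoP and 8.11 and 7.74 against 11.89 and 12.08 in SMP (difference -3.09; adjusted p = 0.0287, limma; called in 2 of 8 fits that left out 1 array). Also lower were Mavs, the adaptor of cytosolic RNA sensing (-2.49), the schlafen gene Slfn8 (-2.22), the intracellular antibody receptor Trim21 (-1.92) and the exonuclease Isg20 (-1.52). The antiviral membrane proteins Ifitm3 (-1.37) and Ifitm1 (-1.12) and Irf9, the DNA-binding subunit of the interferon-stimulated factor (-1.05), fell as well. The calls of all these genes, from Mavs to Irf9, were lost in most of the 8 fits that left out 1 array. Ifitm1 and Ifitm3 were the 2 falls among 22 tested genes with an Ifi, Ifit or Ifitm symbol (9.09%, beside 2.52% of all tested genes), whose median was -0.71. After median centring none of that symbol group was called, and its median was -0.31. Trim21, Isg20 and Irf9 were likewise not called after median centring, and Irf9 was called neither after quantile normalisation nor in any of the 8 fits that left out 1 array. Ifit1 on the first WT-titled SMP array read 6.23, above both numbered SMP arrays at 4.63 and 5.87.

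The promoters of Igtp, Slfn8 and Apobec3 are printed because each held GAAA, any 2 bases and GAAA again, the core of the interferon-stimulated response element, which on both strands occurred in 2.98% of the 32851 promoters. A further RefSeq start of Apobec3, with its window at chr15:79894773-79895022, had no match. No match lay in the windows of Trim21, Ifitm3, Xaf1, Irf9 or Mavs, which says only that these letters are not in those 250 bases. The windows (RefSeq, GRCm38.p6) are chr11:58199306-58199555 for Igtp, chr11:83020811-83021060 for Slfn8 and chr15:79892158-79892407 for Apobec3. Each runs 5′ to 3′ along the gene's own strand, and the match is in capitals, starting 34, 48 and 140 bases before the start.
Igtp promoter: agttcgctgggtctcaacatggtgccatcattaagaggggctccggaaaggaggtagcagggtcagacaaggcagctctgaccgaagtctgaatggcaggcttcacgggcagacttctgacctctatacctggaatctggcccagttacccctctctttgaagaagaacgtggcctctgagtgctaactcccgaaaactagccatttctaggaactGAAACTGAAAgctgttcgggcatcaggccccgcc
Slfn8 promoter: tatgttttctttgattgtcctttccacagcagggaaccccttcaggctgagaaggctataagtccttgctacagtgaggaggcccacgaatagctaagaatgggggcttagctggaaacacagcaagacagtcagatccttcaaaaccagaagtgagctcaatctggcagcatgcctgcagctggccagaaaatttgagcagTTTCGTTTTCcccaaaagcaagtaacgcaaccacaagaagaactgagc
Apobec3 promoter: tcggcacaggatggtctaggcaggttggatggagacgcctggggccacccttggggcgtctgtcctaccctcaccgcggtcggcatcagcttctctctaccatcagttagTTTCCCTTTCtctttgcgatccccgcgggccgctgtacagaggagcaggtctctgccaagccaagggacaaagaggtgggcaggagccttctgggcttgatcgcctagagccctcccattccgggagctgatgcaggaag

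**Figure D4:**
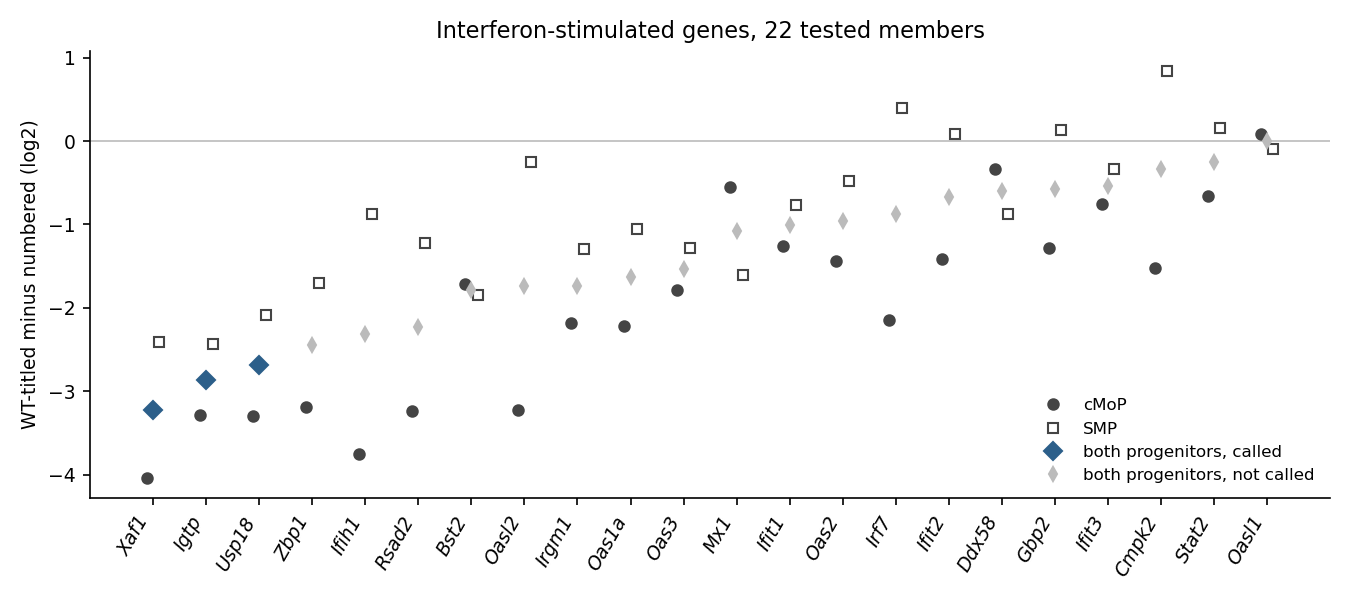
Difference of WT-titled from numbered arrays, in log2 units, for the 22 tested interferon-stimulated genes, with cMoP, SMP and both progenitors as separate symbols. No value over both progenitors is above 0, and the called members are Usp18, Xaf1 and Igtp.

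Inflammatory cytokine and chemokine genes had mostly positive differences. Of 18 tested, 1 rose (Il1b, beside 0.501% of all tested genes) and 1 fell (Ccl9, a chemokine of myeloid cells, -1.18, beside 2.52%). Ccl9 was not called after median centring and was called in 1 of the 8 fits that left out 1 array. Of the 18 differences 16 were positive, and the median was 1.27 (1.97 in cMoP and 0.43 in SMP). In cMoP Il6 read 6.15 and 8.00 on the WT-titled arrays against 2.42 and 2.30, and Ccl4 9.45 and 8.59 against 5.55 and 2.94. In SMP those genes were already high on the numbered arrays, Il6 at 12.71 and 11.67 and Ccl4 at 13.51 and 12.08, and the WT-titled arrays read 13.18 and 13.19 and 13.37 and 13.58. Whether the list differed between progenitors was not tested.

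The immediate-early list had 21 tested members, of which Nr4a2 alone rose (beside 0.501% of all tested genes). Of the 21, 20 had a positive difference, with a median of 0.59 (1.27 in cMoP and 0.19 in SMP). Egr1, a growth-factor-induced transcription factor, read 12.98 and 12.24 against 10.23 and 6.08 in cMoP and 14.76 and 14.37 against 14.53 and 14.22 in SMP. The paired numbered cMoP arrays themselves differed by more than 4 units for Egr1, more than the distance between the nearest arrays of the sets. Fos, a subunit of AP-1, read 14.15 and 14.02 against 13.35 and 13.17 in cMoP, and in SMP 13.83 and 14.19 against 14.28 and 14.37, so that the order of the sets turned between progenitors. Heat shock genes had 12 positive differences of 12 tested and a median of 0.61, and none was called. Of 11 tested p53 targets 2 rose (beside 0.501% of all tested genes), the cell cycle inhibitor Cdkn1a by 1.44 and the pro-apoptotic gene Pmaip1 by 2.46. Each was called in 1 of the 8 fits that left out 1 array, and Cdkn1a was not called on the mean of its probe sets. The list median was 0.58 (0.07 in cMoP and 1.25 in SMP). None of the integrated stress response, unfolded protein response, glucocorticoid or circadian genes was called, and the medians of those lists lay between -0.17 and 0.24.

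**Figure D5:**
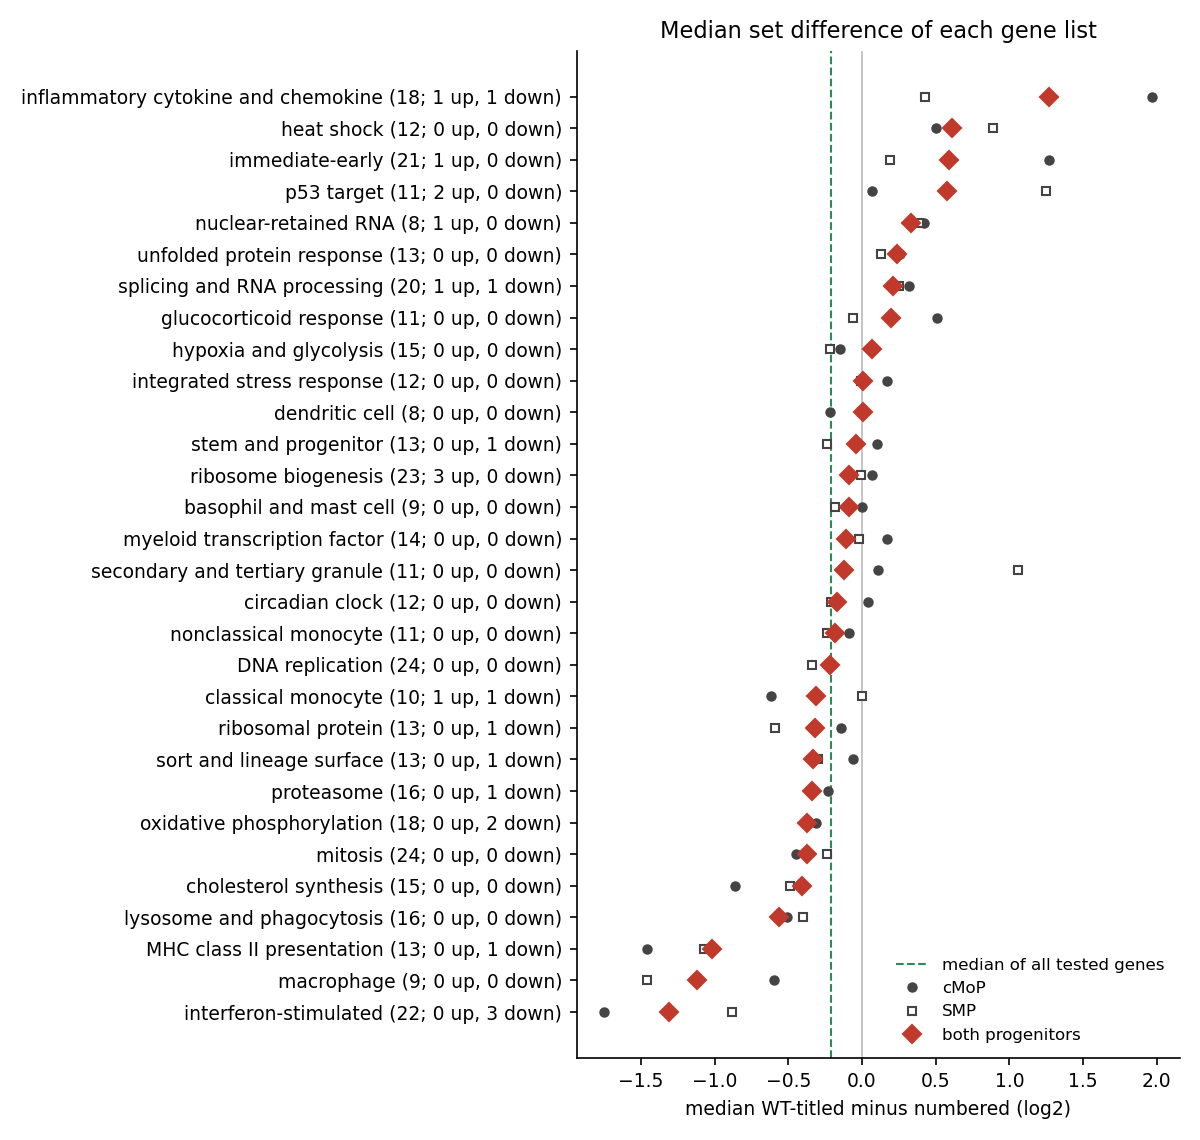
Median difference of WT-titled from numbered arrays, in log2 units, for the gene lists, in cMoP, in SMP and over both, with the median of all tested genes (-0.21) as a dashed line. The cytokine list stands highest of the immune and stress lists at 1.27, and the interferon list at -1.31 is among the lowest.

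Of 13 tested genes of MHC class II presentation, 1 fell (beside 2.52% of all tested genes), H2-Oa (difference -1.65; adjusted p = 0.0339, limma; not called after median centring), and the median was -1.02. Ctss, the protease that trims the invariant chain, read 12.12 and 12.57 against 13.84 and 13.86 in cMoP and 4.38 and 2.99 against 8.36 and 9.23 in SMP, apart in both but not called. Cd83, a marker of activated presenting cells, had a positive difference (1.80), as had the costimulatory genes Cd86 (1.42) and Cd80 (0.39), none of them called, and in cMoP it read 10.02 and 8.15 against 5.38 and 3.42. None of 9 tested macrophage genes was called, all 9 were negative, and the median was -1.12 (-0.72 after median centring). The mean level over the 13 macrophage markers on the array was 2.98 to 3.34 on the WT-titled and 3.98 to 4.29 on the numbered arrays, with C1qa, Cd5l and Mertk at the lowest value on all 8. Whether macrophages carried over in sorting had a part in any difference was not tested. In bulk samples such as these, fewer cells of a type and less RNA per cell cannot be told apart.

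Most genes that define the progenitors did not pass. Kit differed by 0.69, Cd34, a surface marker of progenitors, by -0.13, the cytokine receptor Flt3 by 0.13, Fcer1a by -0.09 and the myeloid transcription factor Cebpb by -0.18. After median centring the values of Cd34, Fcer1a and Cebpb turned to 0.26, 0.30 and 0.22, so no direction is given for them. The exception was Csf1r, which read 12.03 and 11.77 against 13.74 and 13.65 in cMoP and 2.96 and 2.30 against 6.93 and 8.44 in SMP. On the probe set used, its sets did not overlap in either progenitor (difference -3.43, SE 0.70; adjusted p = 0.0484, limma). The call was lost whichever array was left out (adjusted p up to 0.145 over all settings tried). Another Csf1r probe set moved by -2.26. A further one moved by only -0.30, with overlap in cMoP (7.83 and 7.39 against 8.09 and 7.75) and at most 2.95 in SMP. Siglecf, a sialic acid receptor of eosinophils picked out after its values were seen, read 2.68 and 2.68 against 5.34 and 5.33 in cMoP and 6.72 and 6.84 against 9.94 and 10.68 in SMP (difference -3.09; adjusted p = 0.0144, limma). It was among the 21 genes called both in cMoP and in SMP, by tests that share an estimate of the spread. Its call over both progenitors was lost only when a numbered cMoP array was left out. The other tested eosinophil genes, 3 in number, were negative and not called. Tal1, a transcription factor of stem and mast cells, fell by 2.25 (adjusted p = 0.0482, limma). The call of Tal1 was lost in most fits that left out 1 array.

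Markers of other cells were at the lowest value in part and bright in part. Of the 9 T cell markers on the array, Cd3g, Cd4, Cd5 and Cd8a were at the lowest value on every one, as were 5 of 9 NK cell and 6 of 11 stromal markers. On the SMP arrays the NK cell genes Gzmb, a cytotoxic protease, and Nkg7 read 8.29 to 11.60 and 9.80 to 11.22, and the platelet integrin Itga2b 10.92 to 11.30. The erythroid anion exchanger Slc4a1 spanned 5.45 to 10.15 there. Ighm, the immunoglobulin heavy chain of B cells, read 7.86 and 8.70 in WT-titled cMoP against 11.21 and 11.03 in numbered cMoP, and was not called over both progenitors. The part of such cells in the differences was not tested. Secondary and tertiary granule genes of neutrophils had a mean of 9.62 on the first WT-titled SMP array, against 6.06 to 7.33 on the other 7. On that array Ltf read 9.76 and Camp 10.11, where the second WT-titled SMP array read 4.67 and 6.76. None of the 11 granule genes was called, and without that array 48 genes were called in all.

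Energy and growth genes showed few calls. Of 18 oxidative phosphorylation genes 2 fell (beside 2.52% of all tested genes), the complex I subunit Ndufv1 (-1.72) and the complex III core subunit Uqcrc2 (-2.18). They were called in 1 and 2 of the 8 fits that left out 1 array, and the list median of -0.37 became 0.02 after median centring. All tested genes with a Nduf symbol, a group taken after the values were seen, gave 4 falls of 42 (9.52%, beside 2.52% of all tested genes), with a median of -0.91 that stayed at -0.52 after centring. Ndufs7, a complex I subunit, read 9.79 and 10.88 against 12.49 and 12.35 in cMoP and 9.21 and 9.70 against 11.61 and 11.93 in SMP, lower on every WT-titled array. Mitochondrial ribosomal genes gave 3 falls of 76 (3.95%, near that share), among them Mrps24, which read 7.03 and 8.32 against 10.48 and 10.36 in cMoP and 7.50 and 7.35 against 10.39 and 10.29 in SMP, and their median of -0.40 was -0.01 after centring. Of 23 ribosome biogenesis genes 3 rose (beside 0.501% of all tested genes), the processing factors Wdr43 by 1.50 and Noc2l by 1.38 and the H/ACA ribonucleoprotein Gar1 by 1.37. They were called in 4, 0 and 3 of the 8 fits that left out 1 array, while the list median was -0.09 and turned to 0.30 after centring. The mitosis and proteasome medians of -0.37 and -0.34 turned to 0.02 and 0.05 after centring, so no direction is given for those lists.

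The next groups by symbol were formed after the values were seen, so their shares support nothing. Of 41 tested lysine methyltransferase, demethylase and acetyltransferase genes 4 rose (9.76%, beside 0.501% of all tested genes; median 0.19, 34.1% negative), the histone H3 methyltransferases Kmt2a by 1.09 and Setd1a by 1.80, the acetyltransferase Kat5 by 1.07 and the X-linked Kdm6a described above, and 1 fell, the Y-linked Kdm5d. Malat1, a nuclear-retained long RNA, read 13.17 and 13.06 against 11.23 and 11.11 in cMoP and 14.28 and 14.58 against 13.46 and 13.48 in SMP (difference 1.45; adjusted p = 0.0287, limma), and it was the only call among 8 tested nuclear-retained RNAs, whose median was 0.33. Zinc finger genes with a Zfp symbol gave 1 rise and 13 falls of 256 tested (5.08% falling, beside 2.52% of all tested genes), with a median of -0.29 that turned to 0.11 after centring. Among those that fell, Zfp46 read 4.31 and 4.61 against 7.23 and 7.54 in cMoP and 4.01 and 4.56 against 7.26 and 7.15 in SMP. Transmembrane genes with a Tmem symbol gave 13 falls of 144 (9.03%, beside the same 2.52%) and no rise, and 5 falls after centring.

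Of 15 values from the array's own control probe sets, 5 were apart within both progenitors, and 2 of these separated all 4 WT-titled from all 4 numbered arrays. None of the 15 had an adjusted p under 0.167 in the exact permutation test given below. The middle probe set of 18S ribosomal RNA read 11.57 to 12.09 on the WT-titled and 8.83 to 11.28 on the numbered arrays (difference 1.94). The B1 repeat probe set differed by 1.15, and in both the WT-titled arrays were the higher ones. Each had a two-sided p of 0.0556 in an exact permutation test over 36 regroupings within cell type, the smallest that the design allows, and 0.167 after adjustment over the 15 control values. The difference between the 3′ and 5′ probe sets of Actb, which is wider where RNA is more degraded or shorter, was 1.07 to 1.46 on the WT-titled and 1.32 to 2.65 on the numbered arrays (exact permutation p = 0.111). The mean of the 9 hybridisation spikes differed by 0.21 (exact permutation p = 0.222). The B2 repeat (0.13) and the 5′ probe set of Gapdh (0.11) differed by little (exact permutation p = 0.611 and 0.833). The part of these values in the gene differences was not tested.

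A few genes answered the title differently in each progenitor: 43 were called for that interaction (0.391%), 33 with a higher difference in SMP (0.300%) and 10 with a higher one in cMoP (0.0910%). In 41 of the 43, all 4 arrays of one progenitor read below 3, so the gene was measured in the other progenitor only. Rimkla, an enzyme that makes N-acetylaspartylglutamate, read 9.12 and 8.66 on the WT-titled SMP arrays and 2.30 on the other 6. Hpgd, which inactivates prostaglandins, read 2.77 and 2.30 in WT-titled cMoP against 9.51 and 9.30 in numbered cMoP, and 2.84 and 2.30 against 3.74 and 4.12 in SMP. When either numbered cMoP array was left out, all interaction calls were lost. That fit leaves a single array in the group, from which no spread can be taken.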

How the data were processed

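The values were log2 signals deposited by the authors for 45101 probe sets on 35 Mouse430_2 arrays; their normalization, filters and software are not given in the sources used here. Of the probe sets, 64 controls, 9160 without a symbol and 932 with several were left out, and the brightest probe set of each gene, by its mean over all 35, stood for it (18193 genes). Genes over the array's median on at least 2 of the 8 arrays were tested (10986). Titles set the groups. limma 3.58.1 (R 4.3.3) was fitted with trended variance and a term for cell type (5 residual degrees of freedom), and with 4 groups for each progenitor and the interaction; the code was tested on simulated data. The members and lists were chosen with earlier results of these data known. Genes were named by rule: the 12 largest rises and 12 largest falls that followed the title in both progenitors, up to 4 called genes of any list with at least 3, Kit, Cd34, Csf1r, Flt3, Fcer1a, Cebpb, Xist, Ddx3y (no value here) and Nnt, and the 6 largest interaction differences each way; others were picked out after their values were seen. Nnt differed by 0.11. Promoters came from RefSeq tables. Alternatives changed scaling, filter, probe set choice, variance model, arrays used and blocks. The number of arrays limits the precision. Tables and figures used Python 3.11.15, pandas 2.3.3 and matplotlib 3.10.9.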

Additional observations from a re-analysis of the deposited data

Results flagged for a closer look

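The response to the title differed between the progenitors in 43 genes by limma's test of the interaction, given here as the SMP difference minus the cMoP difference. Positive values were largest for Rimkla at 6.60 (adjusted p = 0.00768), Hpgd at 5.51 (adjusted p = 0.0309), Nt5e at 5.17 (adjusted p = 0.0405), Slfn1 at 4.27 (adjusted p = 0.0309), Galc at 4.24 (adjusted p = 0.0145) and Sirpb1a at 3.97 (adjusted p = 0.0472). Rimkla and Nt5e were at 2.30 on every cMoP array and on both numbered SMP arrays, and Nt5e read 6.79 and 8.15 on the WT-titled SMP arrays. Both genes passed the filter only through those WT-titled SMP arrays, and arrays at the lowest value show no spread. The adjusted p-values of such genes therefore rest on arrays without a measured level and are no independent support. Slfn1, Galc and Sirpb1a were lower on the WT-titled cMoP arrays and at most 2.74 on all SMP arrays.

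Negative values were largest for Lamb1 at -5.07 (adjusted p = 0.0236), Homer2 at -4.96 (adjusted p = 0.0350), Sucnr1 at -4.82 (adjusted p = 0.00768), Oosp1 at -4.15 (adjusted p = 0.0309), Fabp4 at -4.10 (adjusted p = 0.0356) and Fam3b at -3.95 (adjusted p = 0.0145). In these 6 genes the numbered SMP arrays read between 5.92 and 7.85, and the other 6 arrays at most 3.03. Sucnr1 and Homer2 passed the filter only through the numbered SMP arrays. With the other arrays at or near the lowest value, the same limit holds for the p-values of all 6. Sucnr1, the succinate receptor, read 7.20 and 7.03 on the numbered SMP arrays and 2.30 elsewhere among the 8. None of the 12 named genes was called without the first or the second numbered cMoP array.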

How the results depend on the processing

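No called gene turned to a call in the other direction under the settings tried for 1 value per gene; on the mean of the probe sets 5 of the 332 changed sign (Bub3, Creb3, Efcab14, Fam114a2 and Tmem234), none of them called. The counts of calls over both progenitors (332, all of which also followed the title in both) became 58 with no filter on low values, 705 with a filter at the 60th percentile (699 that followed in both), 508 over every probe set, 1607 with the spread taken from 20 arrays (1324 in both) and 923 with array weights (776 in both). They ranged from 3 to 404 when 1 array was left out. Other settings gave 250 to 462 calls, among them 324 over autosomal genes alone, a setting chosen after seeing the data, and 432 after median centring (274 higher and 158 lower, where the deposited scale gave 55 and 277), and 194 of the 332 genes were called on the mean of their probe sets. Within cMoP the 148 calls became 92 with no filter, 39 among values over the floor, 1066 with 20 arrays, 751 with array weights and 31 to 166 with 1 array left out. Within SMP the 133 calls became 67, 42, 1388, 40 and 10 to 784 under the same settings, and 222 over every probe set. The 43 interaction calls became 20 after median centring, 1 with the 60th percentile filter, 17 over the floor, 214 with 20 arrays, 10 without a variance trend, 7 with robust variance, 5 with array weights and 0 to 150 with 1 array left out, with 1 call without the first WT-titled cMoP array. Deviations of arrays with the same number correlated at 0.24 between the WT-titled groups and at -0.04 to 0.06 in the other 5 pairs of groups. The main fit did not treat the numbers as pairs, and whether they mark pairs was not tested. A replicate block gave 272 calls over both progenitors (271 in both), 83 in cMoP, 58 in SMP and 0 for the interaction, by limma, where 906 genes had an unadjusted p under 0.05. Of the 332 genes 229 were called with that block and 250 with a random one. The causes were not tested. Between 45.1% and 47.6% of probe sets lay at the lowest value, where no level can be read, and 2 arrays a group limit every estimate of spread.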
